A study of Homo sapiens with 2 samples.

Results

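ATP-binding cassette (ABC) transporters were compared between PC3CR, a cabazitaxel-resistant subline, and PC3, the prostate cancer cell line from which it was derived. Cabazitaxel (CBZ) is a taxane that stabilises microtubules. PC3CR had been kept in CBZ for 18 months and was profiled after 3 months off the drug, whereas no CBZ exposure is given for PC3, and both were cultured in RPMI-1640 with fetal bovine serum. There was 1 array of total RNA per cell line, so no difference below has a replicate check, and changes of the subline cannot be told apart from the spread between cultures. PC3CR is a single subline, and how many clones it holds is not given in the sources used here. Of 43 ABC genes listed by symbol for subfamilies A to G, 41 had a probe set with exactly 1 gene symbol, and they were measured by 92 probe sets. ABCA10 and ABCC6 had none and are not analysed here. These 41 were set beside all 19775 genes measured in the same way.

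ABC proteins bind and hydrolyse ATP. Most use it to move a substrate across a membrane, and a full transporter holds all its domains in 1 chain, whereas others have a shorter chain and work as dimers. Several members, above all P-glycoprotein (ABCB1), the multidrug resistance proteins (ABCC) and the breast cancer resistance protein (ABCG2), export drugs from cells. Some taxanes are classical substrates of P-glycoprotein, and transport of CBZ was not measured here. Other members move cholesterol and phospholipids, bile salts, haem precursors or fatty acids, and ABCE1 and the ABCF proteins have no membrane domain and act on ribosomes.

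The values were log2 values after the robust multichip average (RMA), as deposited, where a difference of 1 is 2-fold, the threshold of the methods. The median of all 54613 probe sets was 4.81 on the PC3CR array and 4.81 on the PC3 array. Probe sets bind with unequal strength, so levels are placed against this median and differences are read within a probe set, never between genes. Where a gene had several probe sets, the one brightest on average over the arrays stood for it. Of the epithelial markers, KRT8, KRT18, KRT19, EPCAM and CDH1 lay above the median on both arrays, although KRT19 differed by -3.28 and EPCAM by -2.49. Of the 4 prostate lineage markers measured, KLK3 (8.08 in PC3CR and 8.04 in PC3) and TMPRSS2 (5.78 in PC3CR and 6.23 in PC3) lay above the median on both arrays, KLK2 lay below it on both, and HOXB13, which differed by -1.73, was above it in PC3 only. Of the 3 leukocyte markers measured, PTPRC was at 2.95 in PC3CR and 3.03 in PC3, CD3E at 5.46 in PC3CR and 5.74 in PC3, and CD14 at 5.11 in PC3CR and 4.66 in PC3. CD3E thus lay above the median on both arrays, CD14 in PC3CR only and PTPRC on neither. Without detection calls, a level above the median does not show by itself that a gene is expressed. Of the 5 fibroblast and endothelial markers, COL1A1, PDGFRB and PECAM1 lay above the median on both arrays, and COL1A2 and VWF below it on both. COL1A1 was at 6.56 in PC3CR and 8.69 in PC3, and its 5 probe sets differed by between -2.12 and 0.03.

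Of the ABC genes, 12.2% were higher and 9.76% lower in PC3CR by 2-fold or more, near the shares of all genes. In PC3CR, 5 of the 41 ABC genes were higher by 2-fold or more, against 9.84% of all genes, and 4 were lower by 2-fold or more, against 6.72%. The higher genes were ABCG2, ABCG1, ABCB10, ABCC4 and ABCA2, and the lower genes were ABCA13, ABCB4, ABCF3 and ABCE1. The other 32 were closer to 0. In log2 units the ABC genes had a median difference of -0.11, and all genes one of -0.04. Among single probe sets, 9 of 92 were higher by 2-fold or more and 6 lower by 2-fold or more, where the shares over all probe sets with 1 symbol were 8.94% and 5.89%. At the edge of the threshold, ABCA2 and ABCE1 lay just past it at 1.004 and -1.04, and ABCA3 just within it at 0.99.

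ABC genes were about as often at or above the array median as genes in general. In PC3CR 25 of the 41 genes were at or above the array median, and in PC3 25 were, where 64.8% and 65.7% of all genes were. On both arrays, 21 lay at or above it and 12 below it. Those 12 were ABCA6, ABCA8, ABCA9, ABCA12, ABCB1, ABCB11, ABCC2, ABCC9, ABCC12, ABCD2, ABCG5 and ABCG8. None of the 12 was past 2-fold, and their differences ran between -0.47 and 0.32. Genes below the median on both arrays seldom passed 2-fold in general. Of all genes higher by 2-fold or more, 1881 of 1946 were at or above it on 1 array or more. Of those lower by 2-fold or more, 1274 of 1329 were. A further 4 genes, ABCB5, ABCB9, ABCG1 and ABCG2, were at or above the median in PC3CR only. Another 4, ABCA4, ABCA13, ABCB4 and ABCC8, were so in PC3 only. Over the 29 genes at or above the median on 1 array or more, the median difference was 0.03, and it was 0.03 over all genes chosen likewise. In that set 5 of 29 were higher by 2-fold or more and 4 of 29 lower by 2-fold or more, beside 13.8% and 9.38% of all genes.

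**Figure D1:**
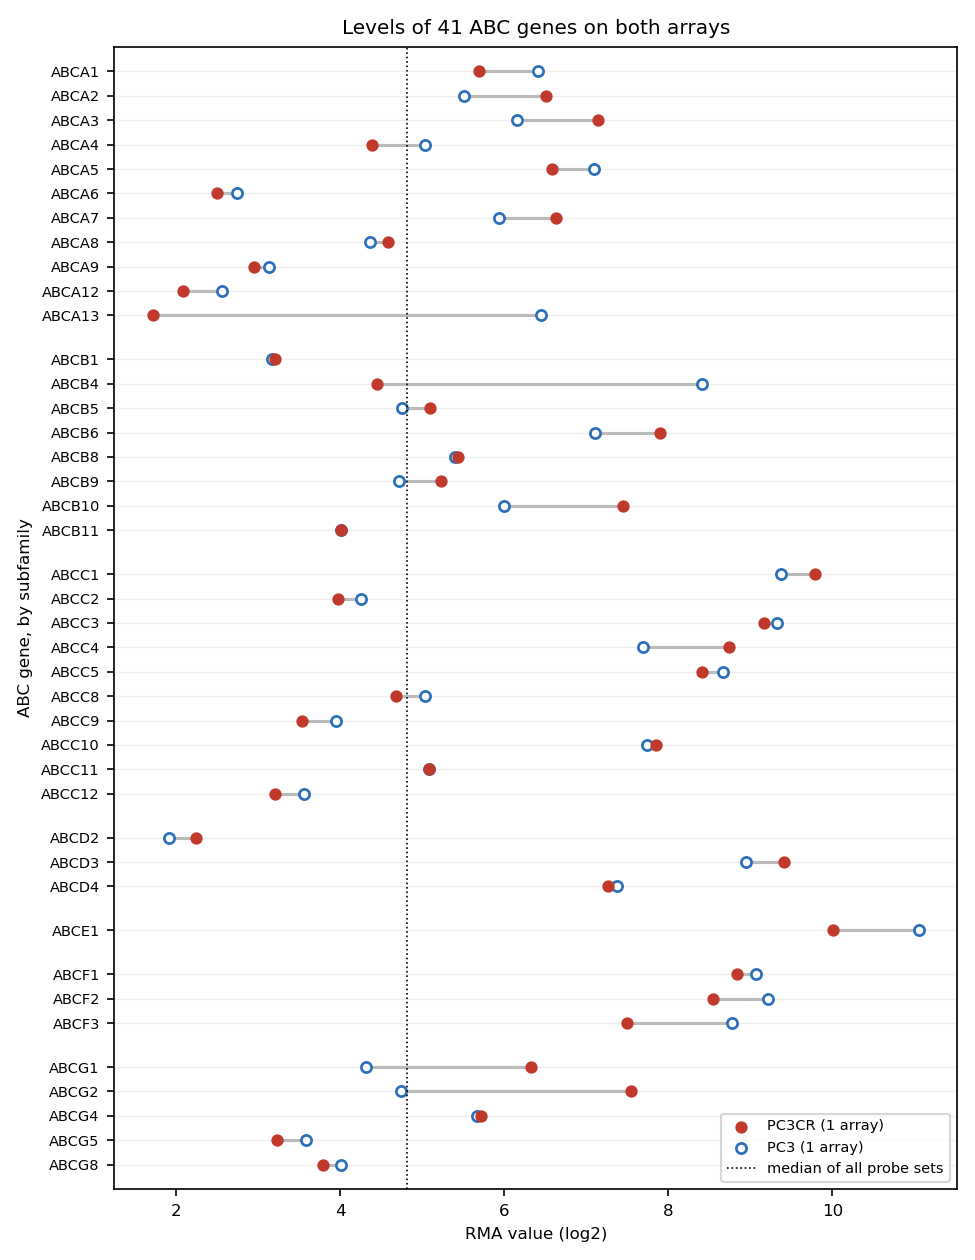
RMA values (log2, horizontal axis) of the 41 ABC genes, grouped by subfamily, with 1 filled red point for the PC3CR array and 1 open blue point for the PC3 array. The dotted line is the median of all probe sets (4.81), which ABCG1 and ABCG2 lie above in PC3CR only and ABCA13 and ABCB4 in PC3 only.

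Subfamilies were compared by how many members lay at or above the array median, but they are small and no difference was tested. Of all genes, 64.8% lay at or above it in PC3CR and 65.7% in PC3. All 3 ABCF genes and ABCE1 did so on both arrays, as did 2 of 3 ABCD genes. In ABCC, 6 of 10 did so in PC3CR and 7 in PC3, and in ABCB 5 of 8 in PC3CR and 4 in PC3. In ABCA, 5 of 11 did so in PC3CR and 7 in PC3, and in ABCG 3 of 5 in PC3CR and 1 in PC3. The median difference was -0.24 for ABCA, 0.19 for ABCB, -0.20 for ABCC, 0.32 for ABCD, -0.66 for ABCF and 0.05 for ABCG. Under median centring, loess centring or quantile normalization these medians kept their sign, other than ABCG, which was at -0.04 after quantile normalization. ABCB was at -0.05 when probe sets ending in _x_at or _s_at, which can bind several transcripts, were left out.

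The promoter windows of 4 genes are shown because these genes stayed past 2-fold in the same direction under each setting that gave a value and had an entry in the promoter table used here. ABCG1 also stayed past 2-fold but had no entry. Sequences are from RefSeq on GRCh38.p14, with 250 bases before and 50 after the start of the gene. Capitals mark matches, on either strand, to the GC box GGGCGG, the E-box CACGTG, the xenobiotic response core GCGTG bound by the aryl hydrocarbon receptor AHR with ARNT, and the hypoxia response core ACGTG, which overlaps the E-box. The CCAAT box, the TATA box TATAAA and the antioxidant response core TGACNNNGC were searched likewise, and none had a match in these 4 windows. ABCG2 had 5 windows, and the one that overlaps most of the others is shown.
ABCG2, chr4:88158810-88159109, - strand: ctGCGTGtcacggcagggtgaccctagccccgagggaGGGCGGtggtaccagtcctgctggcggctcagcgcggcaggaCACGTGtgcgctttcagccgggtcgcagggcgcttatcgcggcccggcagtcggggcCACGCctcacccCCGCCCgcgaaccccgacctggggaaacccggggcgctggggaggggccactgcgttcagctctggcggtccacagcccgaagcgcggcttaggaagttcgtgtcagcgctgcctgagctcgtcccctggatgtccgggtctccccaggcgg
ABCB10, chr1:229558658-229558957, - strand: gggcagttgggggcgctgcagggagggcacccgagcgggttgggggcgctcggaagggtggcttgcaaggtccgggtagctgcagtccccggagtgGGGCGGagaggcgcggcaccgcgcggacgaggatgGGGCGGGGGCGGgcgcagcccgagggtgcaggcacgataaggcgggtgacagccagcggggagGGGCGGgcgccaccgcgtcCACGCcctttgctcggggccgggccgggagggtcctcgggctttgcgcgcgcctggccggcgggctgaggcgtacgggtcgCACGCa
ABCF3, chr3:184185949-184186248, + strand: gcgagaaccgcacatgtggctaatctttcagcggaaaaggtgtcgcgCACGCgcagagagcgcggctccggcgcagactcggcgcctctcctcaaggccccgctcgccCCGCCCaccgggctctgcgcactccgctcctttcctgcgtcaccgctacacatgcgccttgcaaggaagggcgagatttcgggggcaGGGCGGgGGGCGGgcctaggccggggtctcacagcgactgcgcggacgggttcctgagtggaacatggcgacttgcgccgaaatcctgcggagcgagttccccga
ABCA13, chr7:48171208-48171507, + strand: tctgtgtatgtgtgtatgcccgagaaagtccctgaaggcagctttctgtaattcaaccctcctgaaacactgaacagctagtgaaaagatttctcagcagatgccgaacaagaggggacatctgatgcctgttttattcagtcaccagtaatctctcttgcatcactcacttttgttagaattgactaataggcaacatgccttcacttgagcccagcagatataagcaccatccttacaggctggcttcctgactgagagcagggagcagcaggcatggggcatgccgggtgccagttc
The ABCG2, ABCB10 and ABCF3 windows were rich in G and C, at 72.3%, 77.3% and 68.3%, and the ABCA13 window was at 48.3%. ABCB10 had 4 matches to GGGCGG, ABCF3 had 3, ABCG2 had 2 and ABCA13 none. The E-box of ABCG2 began at base -171 from the start. Of all 35116 windows, 45.0% held GGGCGG, 7.3% CACGTG, 36.5% GCGTG, 21.4% ACGTG, 34.6% CCAAT, 11.5% TATAAA and 13.3% TGACNNNGC. A match describes letters and was not tested as a binding site.

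Among the drug and conjugate exporters the dimer-forming transporter ABCG2, the breast cancer resistance protein, had the largest difference. It was at 7.54 in PC3CR and 4.74 in PC3, a difference of 2.80 or 6.98-fold. ABCG2 thus lay just below the array median in PC3 and well above it in PC3CR. It has a single probe set, so no second measurement on the array was at hand. The difference ran between 2.72 and 2.84 over the other scalings.

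ABCC4, or MRP4, exports cyclic nucleotides and organic anions. Its level was 8.74 in PC3CR and 7.69 in PC3, a difference of 1.05 or 2.07-fold. Each of the 4 ABCC4 probe sets read higher in PC3CR, by between 0.44 and 1.05, but only 1 was past 2-fold. ABCC4 came within 2-fold after loess centring (0.94), after quantile normalization (0.99) and when its probe sets were averaged (0.72).

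The other multidrug resistance proteins lay within 2-fold. ABCC1, or MRP1, which exports glutathione conjugates, was at 9.78 in PC3CR and 9.38 in PC3, and its 2 probe sets differed by 0.41 and 0.80. ABCC3, an exporter of glucuronides, was at 9.16 in PC3CR and 9.32 in PC3, with 5 probe sets between -0.22 and 0.11. ABCC5, an exporter of nucleotide analogues, was at 8.42 in PC3CR and 8.67 in PC3. Its 3 probe sets ran between -0.74 and 0.13, so their directions were mixed. ABCC10, or MRP7, for which taxanes are known substrates, was at 7.85 in PC3CR and 7.74 in PC3, and its probe sets differed by 0.11 and -0.07. Of these genes ABCC1 was higher and ABCC3 lower under each setting run, and ABCC10 changed sign after loess centring (-0.02).

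ABCB1, the P-glycoprotein gene and the best known exporter of taxanes, was at 3.21 in PC3CR and 3.17 in PC3. The second ABCB1 probe set read 2.64 on both arrays. ABCB1 was thus below the array median in the resistant and the parental cells alike. ABCC2, an apical exporter of conjugates, was at 3.98 in PC3CR and 4.25 in PC3. ABCC11, which exports cyclic nucleotides and lipophilic anions, was at 5.08 on both arrays, with identical deposited values. Identical values occurred for 1817 of all probe sets, or 3.33%, and for 4 of the 92 ABC probe sets. An exact 0 is thus a feature of these deposited values and was not read as a measurement of no change. In all, 2 of 9 exporters measured passed 2-fold upward and none downward, beside 9.84% and 6.72% of all genes, with a median of 0.04. At or above the array median were 7 of the 9 in PC3CR and 6 in PC3. Of all genes at or above it on 1 array or more, 13.8% passed 2-fold upward and 9.38% downward. After loess centring, after quantile normalization or with the mean of probe sets, 1 exporter was higher by 2-fold or more.

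ABCB4, the phosphatidylcholine floppase MDR3 that protects bile ducts from bile salts, is the closest relative and chromosomal neighbour of ABCB1. It was at 4.45 in PC3CR and 8.42 in PC3, a difference of -3.96, or 15.6-fold lower in PC3CR. Its second probe set was also lower but dim, at 2.65 in PC3CR and 3.43 in PC3. A further probe set, which the annotation assigns to both ABCB4 and ABCB1 and which was outside the rule, was at 3.56 in PC3CR and 8.23 in PC3, a difference of -4.67. It followed ABCB4, and it cannot be assigned to either gene alone. Around ABCB4 on chromosome 7, RUNDC3B differed by 2.72 and SLC25A40 by 1.41, whereas CROT, the nearest measured gene on the other side, differed by 0.38.

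**Figure D2:**
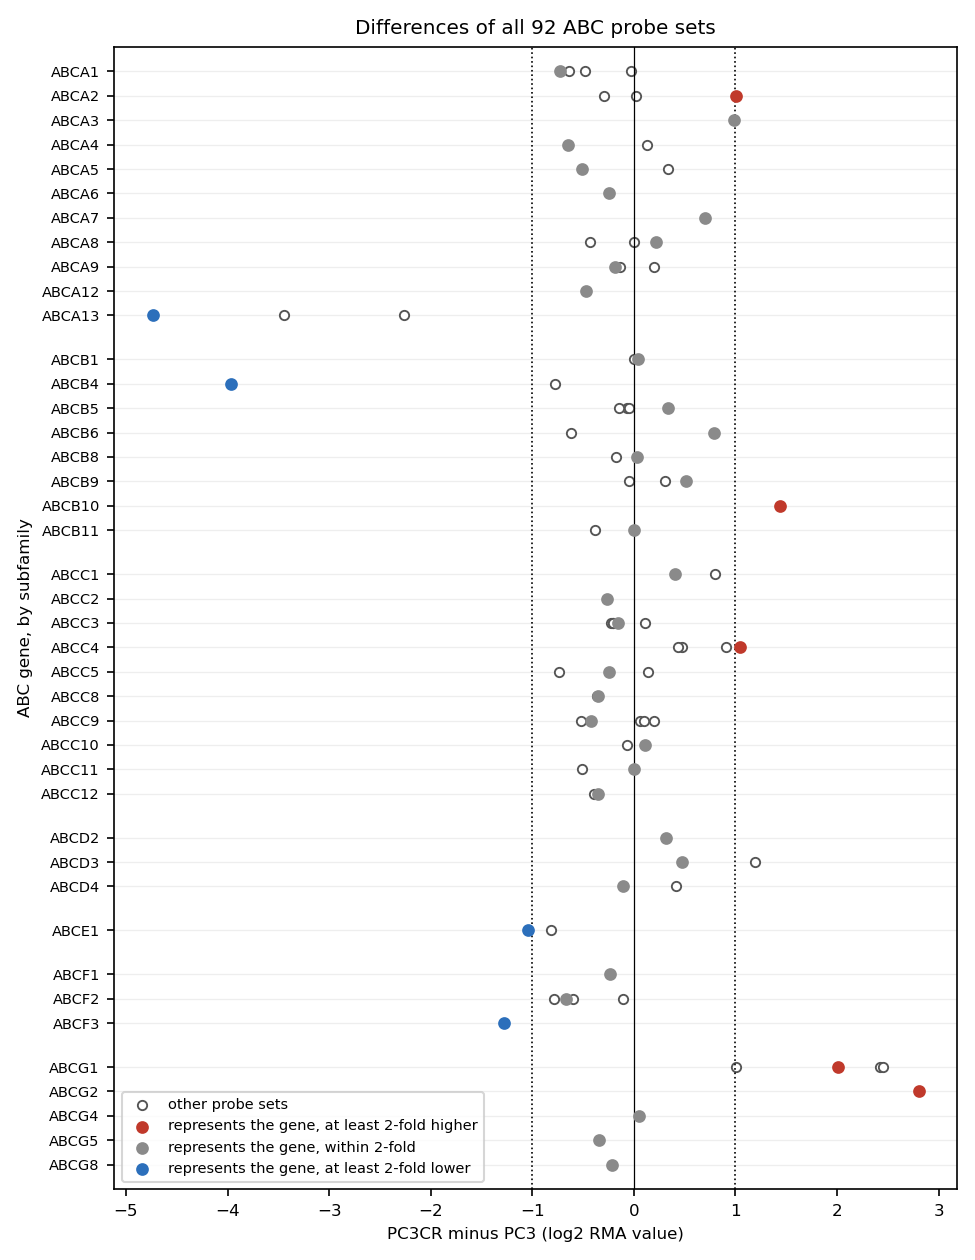
PC3CR minus PC3 (log2 RMA value, horizontal axis) for all 92 probe sets of the 41 ABC genes, by subfamily. Filled points represent the gene (red higher by 2-fold or more, blue lower by 2-fold or more, grey within 2-fold), open points are its other probe sets, and dotted lines mark 2-fold. All 4 ABCG1 points lie to the right of the upper line and all 3 ABCA13 points to the left of the lower one.

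Cholesterol and phospholipid transporters went both ways. ABCG1, which moves cholesterol to lipoproteins and is a classical target of the liver X receptors, was at 6.32 in PC3CR and 4.31 in PC3, a difference of 2.01 or 4.02-fold. Its other 3 probe sets were higher in PC3CR by 2.45, 2.42 and 1.01, so all 4 were past 2-fold in the same direction. ABCA1, the full transporter that loads cholesterol onto apolipoprotein A1 and is also a liver X receptor target, was at 5.69 in PC3CR and 6.41 in PC3. Its 4 probe sets were all lower in PC3CR, by -0.73, -0.64, -0.48 and -0.03, and none was past 2-fold. Both genes carry cholesterol out of cells, and they lay on opposite sides of 0 under each setting run. ABCG4, a relative of ABCG1, was at 5.72 in PC3CR and 5.67 in PC3. ABCG5 and ABCG8, which form the sterol exporter of liver and intestine, were below the array median on both arrays and differed by -0.34 and -0.22.

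ABCA13, one of the largest ABC proteins, had the largest difference of all 41 genes. It was at 1.71 in PC3CR and 6.45 in PC3, a difference of -4.74, or 26.7-fold lower in PC3CR. Its other probe sets were at 1.68 in PC3CR and 5.13 in PC3, and at 2.48 in PC3CR and 4.74 in PC3. All 3 were thus lower in PC3CR by more than 2-fold, and its brightest probe set read 1.71 where the lowest value of the PC3CR array was 1.58. Of its 6 nearest measured genes on chromosome 7, 1 was higher by 2-fold or more (C7orf57, 1.65) and 1 lower (UPP1, -1.62). Of all genes, 9.84% were higher and 6.72% lower by that much.

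ABCA2, a lysosomal lipid transporter, was at 6.51 in PC3CR and 5.51 in PC3, a difference of 1.004. Its other 2 probe sets differed by 0.02 and -0.30, and the mean over its 3 probe sets was 0.24. ABCA2 is therefore past 2-fold by its brightest probe set alone. ABCA3, which loads phospholipid into lamellar bodies of the lung, was at 7.14 in PC3CR and 6.15 in PC3, a difference of 0.99 on its only probe set. ABCA7, a phospholipid transporter related to ABCA1, was at 6.64 in PC3CR and 5.93 in PC3. ABCA5, of the lysosome, was at 6.59 in PC3CR and 7.10 in PC3, and its second probe set differed by 0.34 in the other direction. ABCA4, the retinal transporter, differed by -0.65. Of the neighbouring genes ABCA6, ABCA8 and ABCA9, none was at or above the array median on either array, nor was ABCA12, the lipid transporter of skin. ABCB11, the bile salt export pump of liver, was at 4.01 on both arrays. Over all 17 lipid, sterol and bile salt transporters measured, 2 were higher by 2-fold or more, 2 lower by 2-fold or more and 13 within 2-fold, and the median was -0.22. The shares, 11.8% each way, were near the 9.84% and 6.72% of all genes.

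Of the dimer-forming transporters of mitochondria and lysosomes, 1 of 4 passed 2-fold, upward, where 9.84% of all genes did. ABCB10, of the inner mitochondrial membrane and needed for haem synthesis in red blood cell precursors, was at 7.44 in PC3CR and 6.003 in PC3, a difference of 1.44 or 2.71-fold. ABCB10 has a single probe set, and the difference ran between 1.31 and 1.48 over the other scalings. ABCB6, a porphyrin transporter, was at 7.90 in PC3CR and 7.11 in PC3, but its second, dimmer probe set was lower in PC3CR by -0.62. ABCB9, a lysosomal peptide transporter, was at 5.23 in PC3CR and 4.72 in PC3. ABCB8, a mitochondrial member, was at 5.43 in PC3CR and 5.40 in PC3, and its difference was -0.01 after quantile normalization. The median of the 4 genes was 0.65, or 0.17 with the mean of probe sets and -0.05 without probe sets ending in _x_at or _s_at, where ABCB10 has no value.

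Of the 4 proteins of ribosomes and translation, ABCF3 and ABCE1 were past 2-fold downward, and ABCF1 and ABCF2 were within it. ABCF3, which has no membrane domain, was at 7.50 in PC3CR and 8.78 in PC3, a difference of -1.28, or 2.42-fold lower in PC3CR. ABCE1, which splits ribosomes after termination, was at 10.01 in PC3CR and 11.05 in PC3, a difference of -1.04, and its second probe set differed by -0.81. ABCE1 came within 2-fold when both were averaged (-0.93) and after quantile normalization (-0.97), and it was at -0.998 after median centring. ABCF2 was at 8.55 in PC3CR and 9.21 in PC3, and all 5 of its probe sets were lower, by between -0.79 and -0.11. ABCF1, which takes part in translation initiation, was at 8.84 in PC3CR and 9.07 in PC3. All 4 genes lay below 0 under each setting in which they had a value. Their median was -0.85. Among all genes 6.72% were lower by 2-fold or more, or 9.38% of those at or above the array median on 1 array or more.

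Of the peroxisome family, ABCD3, which imports branched and long-chain acyl-CoA, was at 9.41 in PC3CR and 8.95 in PC3, a difference of 0.47. Its second probe set, at 7.02 in PC3CR and 5.83 in PC3, differed by 1.19 and was past 2-fold. Both were higher in PC3CR, and their mean difference was 0.83. ABCD4, of the lysosome and needed for vitamin B12 release, was at 7.27 in PC3CR and 7.38 in PC3, with a second probe set at 0.41 in the other direction. ABCD2 was below the array median on both arrays. ABCC8 and ABCC9, the sulfonylurea receptors of potassium channels, differed by -0.35 and -0.42. ABCC8 was at 4.68 in PC3CR and 5.03 in PC3, and ABCC9 below the median on both arrays. ABCB5 was at 5.09 in PC3CR and 4.75 in PC3 by its brightest probe set, and its other 3 probe sets differed by between -0.15 and -0.05. ABCC12 was at 3.21 in PC3CR and 3.56 in PC3.

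**Figure D3:**
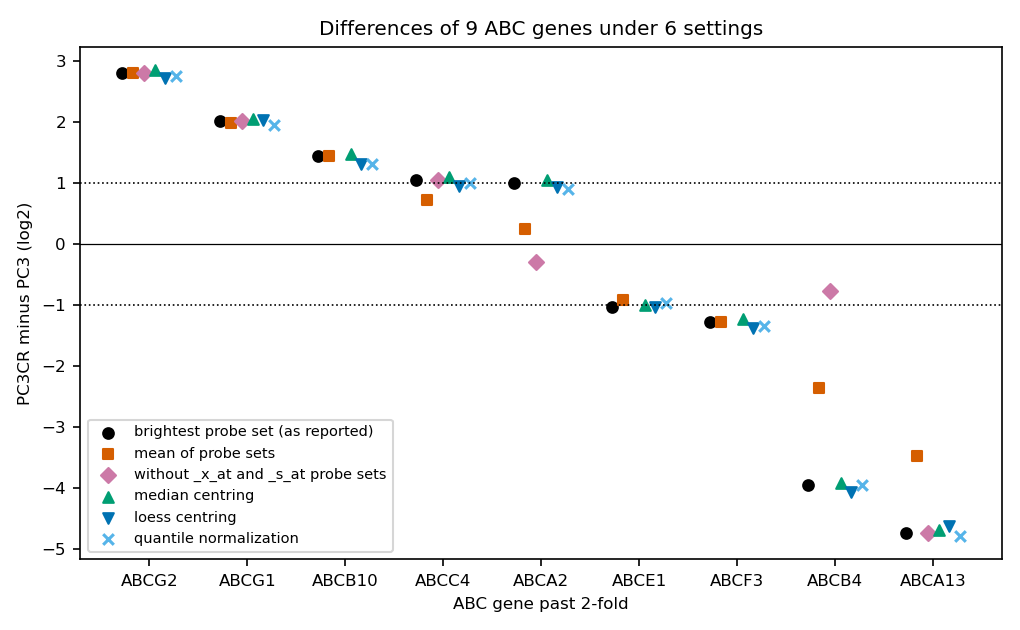
PC3CR minus PC3 (log2, vertical axis) of the 9 ABC genes past 2-fold, with 1 symbol for each of 6 settings and dotted lines at 2-fold. ABCG2, ABCG1, ABCB10, ABCF3 and ABCA13 stay past the lines in each setting with a value. ABCC4, ABCE1, ABCB4 and ABCA2 come within them in some, and ABCA2 also changes sign in 1.

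Probe sets of one gene did not always share a direction. Of the 28 ABC genes with several probe sets, 11 had all of them on the same side of 0, and 13 genes had a single probe set. An exact 0 counted as neither side. ABCB1, ABCB11 and ABCC11 fell outside the 11 through such a value and had no probe sets of opposite sign. The share over all genes was not computed. Of the 9 genes past 2-fold, ABCG1, ABCC4, ABCE1, ABCB4 and ABCA13 had all their probe sets on the same side of 0 and ABCA2 did not. ABCG2, ABCB10 and ABCF3 were measured once.

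Genes that act with the ABC proteins were read from lists of known partners. In taxane uptake and metabolism, SLCO1B3, an uptake transporter of hepatocytes that accepts taxanes, was at 3.14 in PC3CR and 7.74 in PC3, a difference of -4.61 on its only probe set. CYP1B1, a cytochrome P450 that can metabolise taxanes, was at 8.20 in PC3CR and 9.78 in PC3, and all 4 of its probe sets were lower by between -1.71 and -1.32. The other 6 of the 8 genes, among them CYP3A4 and CYP2C8, which oxidise taxanes in liver, lay within 2-fold. None of the 8 was higher by 2-fold or more, and 2 were lower, beside 9.84% and 6.72% of all genes.

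Glutathione conjugation supplies substrates to the ABCC exporters. Of 19 genes, 3 passed 2-fold upward in PC3CR and 1 downward, and the median was 0.38. All 19 lay above the array median, and among genes at or above it on 1 array or more 13.8% passed 2-fold upward and 9.38% downward, so the 15.8% upward in the list was near the background. GCLM, the modifier subunit of the enzyme that limits glutathione synthesis, was at 10.61 in PC3CR and 9.37 in PC3. GSR, glutathione reductase, differed by 1.19. GSTA4, a glutathione transferase, differed by 1.31 with a second probe set at -0.31, and GSTM3, another, by -2.99 with a second probe set at -0.93.

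Of 20 regulators of ABC genes listed, 15 were measured. Of these, 1 of 15 passed 2-fold, downward, or 6.67%, close to the 6.72% of all genes. It was PPARG, a nuclear receptor of lipid metabolism, at 7.85 in PC3CR and 10.16 in PC3, a difference of -2.31. On each array 13 of the 15 lay at or above the array median. Among all genes at or above it on 1 array or more, 9.38% were lower by 2-fold or more. NR1H3, the liver X receptor alpha, differed by -0.30, AHR by 0.54, HIF1A by -0.76 and NFE2L2 by -0.08. Of 11 partners in sterol efflux and uptake, SOAT1, which esterifies cholesterol, differed by 1.80, the phospholipid transfer protein gene PLTP by -2.25 and APOE by -2.06. The other 8 were within 2-fold. Upward and downward shares were 9.09% and 18.2%, beside 9.84% and 6.72% of all genes.

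Haem synthesis is the pathway that ABCB10 and ABCB6 act with. Of 12 genes of haem and iron-sulfur synthesis, 4 passed 2-fold upward and none downward, with a median of 0.33. All 12 lay above the array median, and 13.8% of all genes at or above it on 1 array or more passed 2-fold upward. The 4 were all enzymes of haem synthesis. The other measured enzymes of that pathway in the list, ALAS1, UROD and PPOX, were within 2-fold, at 0.16, 0.05 and 0.34. CPOX was at 8.66 in PC3CR and 7.10 in PC3, a difference of 1.56, ALAD differed by 1.38, FECH, the last enzyme of the pathway, by 1.31 and UROS by 1.12. With the mean of probe sets 2 of the 4 remained past 2-fold, since ALAD was at 0.99 and UROS, whose probe sets disagreed in sign, at 0.65. After loess centring 3 remained, with UROS at 0.99. SLC25A37, the iron importer that binds ABCB10 in mouse cells, differed by 0.51, and its probe sets ran between 0.12 and 2.12.

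Of 12 peroxisome partners, 2 were higher by 2-fold or more (PEX7 at 1.13 and PEX26 at 1.05) and 2 lower by 2-fold or more (PEX2 at -1.37 and PEX16 at -1.10), with a median of 0.01 that was below 0 under loess centring and quantile normalization. All 12 lay above the array median, and of all genes at or above it on 1 array or more 13.8% were higher and 9.38% lower by that much. With the mean of probe sets PEX26 was at 0.46 and PEX16 at -0.94, and after loess centring PEX7 was at 0.99 and PEX26 at 0.92. PEX26 was also within 2-fold after quantile normalization (0.93). The 9 partners of ribosome recycling and initiation all lay within 2-fold by their brightest probe sets, with EIF3J at -0.93. EIF2AK4 was at 0.67, but its other probe set was at -1.93. GSPT1 was at -0.58, but its 6 probe sets ran between -0.58 and 1.55. The potassium channel pores KCNJ8 and KCNJ11 differed by -0.24 and -0.36. No difference between lists was tested.

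**Figure D4:**
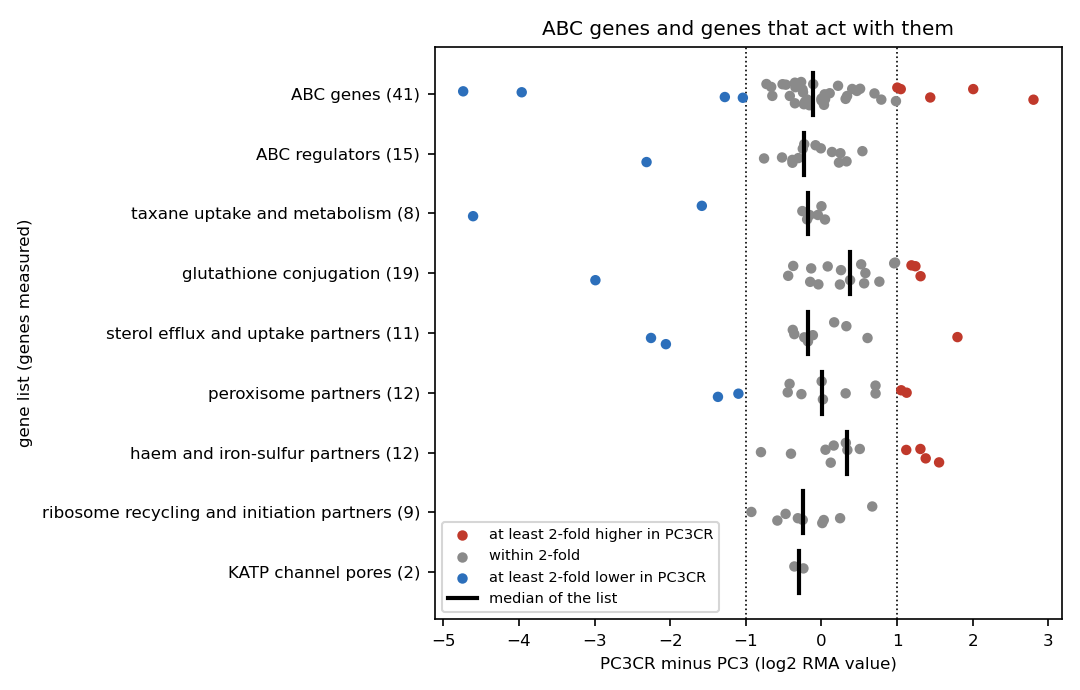
PC3CR minus PC3 (log2 RMA value, horizontal axis) of the 41 ABC genes and of 8 lists of genes that act with them, 1 point per gene, where bracketed numbers give the genes measured. Red marks PC3CR above PC3 by 2-fold or more, blue the opposite, and grey a smaller difference, dotted lines 2-fold and black bars the median of a list. The 4 red points of the haem list are ALAD, UROS, CPOX and FECH, and the blue point furthest left below the ABC genes is SLCO1B3.

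Chromosomal neighbours mostly did not share the difference of the ABC gene. For each of the 9 genes past 2-fold, 3 measured genes on each side in RefSeq order were read. Of all genes, 9.84% were higher and 6.72% lower by 2-fold or more, and no neighbour count was tested against these shares. Next to ABCG2 on chromosome 4, 3 of 6 were higher by 2-fold or more, SPP1 at 6.48, HERC6 at 1.52 and HERC5 at 1.04, while PPM1K, the nearest measured gene on one side, was at 0.22. Next to ABCA2, ABCC4, ABCE1 and ABCF3 none of the 6 neighbours was past 2-fold. Next to ABCB10 only GALNT2 was, at 1.18, and next to ABCG1 only TFF1, at -2.46.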

How the data were processed

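Total RNA of PC3CR and PC3 was measured on 1 array each. The values deposited by the authors are log2 signals of probe sets after RMA. The submitters' notes name Transcriptome Analysis Console 3.1 and Affymetrix Expression Console 1.4. RMA makes array distributions alike and can hide a difference in total RNA. The methods name a Human Gene 1.0 ST array, but identifiers and platform annotation belong to the U133 Plus 2.0 design. The file holds no detection calls, and precision is limited by having 1 array per line. Of 54613 probe sets, 41091 had 1 gene symbol (updated through Entrez IDs for 41037), 1801 had several and 11721 were unnamed here. The members, lists and rules were chosen with earlier results of these data known. All members could be named. Full values were given for members past 2-fold, members with another probe set past 2-fold and the exporters, and for up to 4 genes per partner list. No p-value was computed. Alternatives were 2 other rules for the probe set, 3 scalings (loess span 0.4), 2 thresholds, a floor on signal and the median over genes. For medians of subfamilies, role groups and partner lists and for partner genes, the alternatives were added after the data had been seen. A value was taken as moved past 0.1, a count past 1.5 times. The procedure was tested on simulated data. RefSeq on GRCh38.p14 served for symbols, neighbours and promoters, and 33 of the 41 genes had a window. Computations ran in pandas 2.3.3 and numpy 2.4.6 under Python 3.11.15, loess in statsmodels 0.14.6 and plots in matplotlib 3.10.9.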

Additional observations from a re-analysis of the deposited data

Results flagged for a closer look

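Among ABC probe sets outside the rule, 1 was higher by 2-fold or more in PC3CR, that of the pseudogene ABCC6P1, at 4.77 in PC3CR and 3.55 in PC3, a difference of 1.22. It was below the array median on both arrays, and since ABCC6 itself had no probe set with 1 symbol, whether its RNA binds there was not tested.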

How the results depend on the processing

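The number of ABC genes higher by 2-fold or more, 5 as reported, was 3 with the mean of probe sets, without probe sets ending in _x_at or _s_at, after loess centring and after quantile normalization, 8 at a threshold of 1.5-fold and 2 at 3-fold. The number lower by 2-fold or more, 4 as reported, was 1 without probe sets ending in _x_at or _s_at, where 6 of the 41 genes had no value, ABCE1 and ABCF3 among them, 7 at 1.5-fold and 2 at 3-fold. The median difference, -0.11 as reported, was 0.034 once genes below the array median on both arrays were left out, and between -0.21 and -0.07 under the other settings. ABCA2, at 1.004 as reported, was at -0.30 without probe sets ending in _x_at or _s_at, and ABCB4 at -0.78. The numbers of genes at or above the array median, 25 on each array, were 19 on each against the median over genes and 17 on each without those probe sets. Of 199 member differences under alternatives, 49 were counted as moved by over 0.1, and 1 more, of ABCA2, was counted as reversed in sign. No paired analysis was possible because each cell line has 1 array. Without detection calls, the fold sizes of ABCA13, ABCB4, ABCG1 and ABCG2, each below the array median on 1 array, could not be set against a measured floor.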

Other observations

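Probe sets of other ABC pseudogenes were also on the array. ABCA17P was at 5.18 in PC3CR and 6.57 in PC3, a difference of -1.40, and ABCA11P at 3.62 in PC3CR and 3.37 in PC3. The 4 probe sets of ABCC13 lay between 2.41 and 2.76 in PC3CR and between 2.55 and 3.26 in PC3. A probe set assigned to both ABCB8 and ASIC3 was at 3.71 in PC3CR and 3.38 in PC3.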
